A study of Mus musculus with 6 samples.

Results

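The clustered protocadherins are cell-surface adhesion proteins of the cadherin superfamily, encoded in the mouse by the tandem Pcdha, Pcdhb and Pcdhg arrays on chromosome 18. The members were taken as every gene identifier in the count files whose RefSeq symbol begins with Pcdha, Pcdhb, Pcdhga, Pcdhgb or Pcdhgc and belongs to those arrays. This gave 58 genes of 27179 identifiers, namely 14 alpha, 22 beta and 22 gamma genes, between positions 36930285 and 37841873 of GRCm38 (mm10), a span of 911.6 kb. Their counts were compared between 3 groups of A20 cells with 2 replicates each. A20 cells derive from a B cell lymphoma of the mouse, with BALB/C given as the strain. The WT group was untransduced. Both other groups carried TETact-v3, in which dCas9 with SunTag epitopes recruits the TET1 catalytic domain and MS2 aptamers in the sgRNA recruit the activator p65-hsf1, delivered by lentivirus with enrichment of the transduced cells by sorting. They differed in the sgRNA, which was non-targeting (Control_sgRNA) or directed to the Cd4 promoter (Cd4_sgRNA), and they were collected on day 7 after its transduction. Transduction, sorting, culture and TETact-v3 therefore cannot be told apart in a comparison with WT, and both TETact groups share the WT libraries as comparator.

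In the alpha and gamma arrays each member has its own promoter and a large variable first exon, which encodes the extracellular cadherin repeats, the transmembrane segment and part of the cytoplasmic tail, and which is spliced to constant exons shared by the whole array. Beta genes are single exons without a shared tail. Neurons choose promoters from these arrays largely at random and so display individual combinations, which serve in self-recognition of neurites, whereas the C-type genes at the ends of the alpha and gamma arrays are chosen less randomly. The promoters are known to be held silent by DNA methylation and by the chromatin factors SMCHD1 and SETDB1, and to be activated through CTCF and cohesin.

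In the GENCODE annotation of GRCm38 the 22 gamma genes had 4 exons each and shared between 2116 and 2119 bases of exon, the 14 alpha genes had 4 exons and shared 2860 bases, and the 22 beta genes had 1 exon. Counts nevertheless differed widely among gamma genes of the same library, from 1 for Pcdhga6 to 709 for Pcdhgb7 in Control_sgRNA replicate 1, so the shared exons cannot have been counted in full for each member. The first exons are similar but separable. Of all 66-base windows, the read length, the share that occurred in no other member was 93.0% for Pcdhgb4, 92.92% for Pcdhgb5, 92.12% for Pcdhgb6, 98.85% for Pcdhgb7 and 100% for Pcdhgc4. How the counting treated strand and shared reads is not stated, and Pcdhgb7 is overlapped by the antisense annotation Gm26672, so that reads of that pair cannot be told apart. The RefSeq models of Pcdhb21 and Pcdhb22 do not overlap, whereas their longer GENCODE models do.

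The libraries held between 23194920 counts (WT replicate 2) and 121623410 counts (Control_sgRNA replicate 1). Levels are given as CPM, counts per 1000000 after TMM scaling, and a count of 3 in the shallowest library equals 0.140 CPM. The label check by the targeted gene held, since Cd4 was counted 30959 and 40422 times with Cd4 sgRNA and at most 127 times in any other library. The Control_sgRNA replicates stood apart from each other. Their chi-square, divided by its degrees of freedom, was 221.2, against 7.842 between the WT and 6.763 between the Cd4_sgRNA replicates. They were the deepest libraries and held 6.63% and 11.5% mitochondrial counts. Mitochondrial counts made up 2.65% and 2.69% in WT and 5.96% and 6.90% in Cd4_sgRNA, and their part in the results was not tested. All 6 B cell markers examined were present in every library, with a summed level from 3809 CPM (Cd4_sgRNA replicate 2) to 7206 CPM (Control_sgRNA replicate 2), and Cd79a and Cd79b, the signalling chains of the B cell receptor, fell in each TETact group against WT in edgeR's quasi-likelihood test. Of 10 neuron markers, Snap25, Nefl, Gap43 and Ncam1 were at 0 counts in each library. The summed level of the neuron markers, which was mostly Tubb3, was 40.5 and 39.5 CPM in WT, 11.4 and 18.8 CPM in Control_sgRNA, and 10.8 and 11.5 CPM in Cd4_sgRNA. Of the 4 neuron markers tested, Tubb3 fell in both groups, and Syn1, a synaptic vesicle protein, rose in Control_sgRNA from 0.248 ± 0.0460 to 1.001 ± 0.0866 CPM (SD, n = 2, adjusted p = 0.0095, edgeR) and was at 0.648 ± 0.0101 CPM (SD, n = 2) in Cd4_sgRNA (adjusted p = 0.0563, edgeR). Syp, another vesicle protein, was at 0.563 ± 0.268, 1.45 ± 0.717 and 2.17 ± 0.698 CPM (SD, n = 2) in WT, Control_sgRNA and Cd4_sgRNA and did not pass the threshold. The median log2 fold change of the 4 was 0.82 and 0.63. Of 6 fibroblast markers Col1a2 was at 0 throughout, and the summed level, most of it Pdgfrb, was 1.16 and 1.17 CPM in WT, 5.43 and 10.3 CPM in Control_sgRNA, and 1.43 and 1.65 CPM in Cd4_sgRNA.

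The alpha genes were silent at this depth. All 14 alpha genes, the C-type genes Pcdhac1 and Pcdhac2 included, had 0 counts in each of the 6 libraries. A count of 3 over all libraries, the limit that a count of 0 allows, corresponds to 0.00890 CPM per gene. Of the beta genes 6 were at 0 in all libraries, whereas each of the 22 gamma genes had at least 1 count in some library, which left 38 members with a count.

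**Figure D1:**
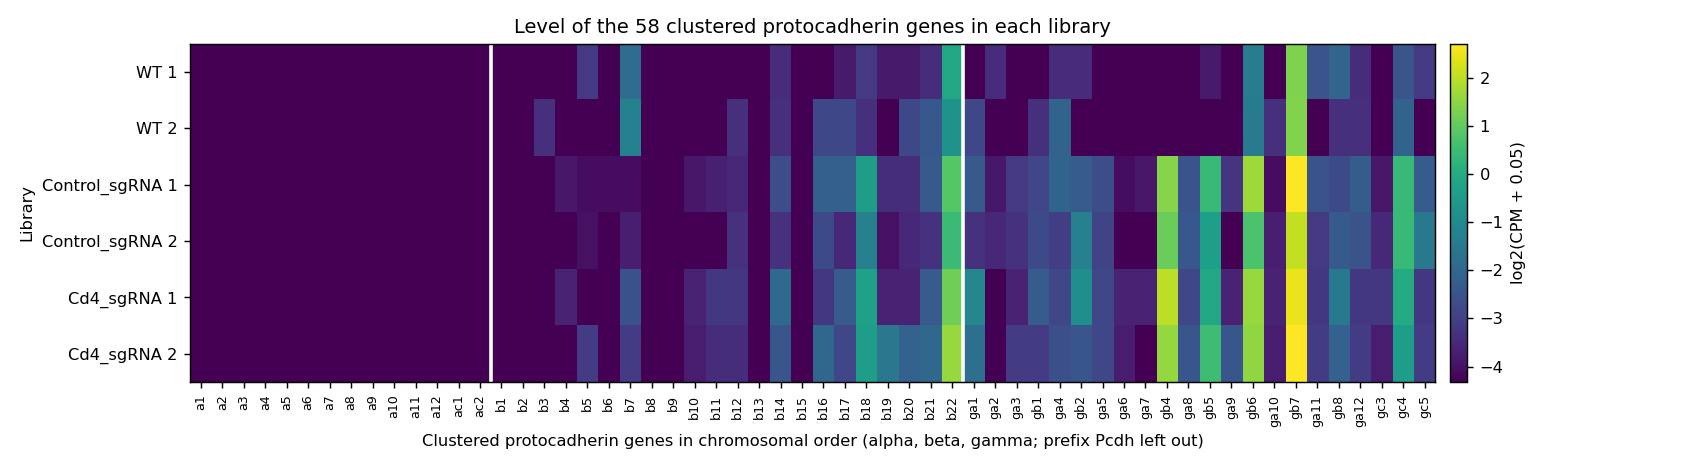
Level of each of the 58 genes (columns, in chromosomal order, white lines between the alpha, beta and gamma arrays) in each of the 6 libraries (rows), as log2(CPM + 0.05) on the colour scale. The alpha columns are at 0 in each library, Pcdhgb7 and Pcdhb22 are seen in each library, and Pcdhgb4, Pcdhgb5, Pcdhgc4 and Pcdhb18 are bright in the 4 TETact libraries and dark in both WT libraries.

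In WT cells few members were seen. With more than 3 counts in both replicates there were 5 members in WT, 22 in Control_sgRNA and 13 in Cd4_sgRNA, which also follows the depth of the libraries. Counted instead above 0.140 CPM, a level set by the shallowest library, there were 5 and 6 members in the WT libraries, 15 and 10 in Control_sgRNA and 14 and 13 in Cd4_sgRNA. The gamma array accounted for most of this, with 3 and 4 genes above that level in WT, 10 and 8 in Control_sgRNA and 9 and 7 in Cd4_sgRNA.

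Summed over the 22 genes, the gamma array was at 3.53 and 3.50 CPM in WT, at 16.3 and 11.5 CPM in Control_sgRNA and at 16.4 and 15.7 CPM in Cd4_sgRNA. The ranges did not overlap with WT, and the mean was 3.94 times the WT mean in Control_sgRNA and 4.57 times in Cd4_sgRNA. Most of the gamma signal came from the 7 B-type genes (Pcdhgb), which summed to 3.01 ± 0.0957 CPM (SD, n = 2) in WT, 11.5 ± 3.25 CPM (SD, n = 2) in Control_sgRNA and 14.2 ± 0.255 CPM (SD, n = 2) in Cd4_sgRNA. The 12 A-type genes (Pcdhga), which alternate with the B-type genes along the chromosome, summed to 0.316 ± 0.0816, 0.834 ± 0.271 and 0.974 ± 0.00368 CPM (SD, n = 2) in the same order. The 3 C-type genes (Pcdhgc) summed to 0.190 ± 0.00487, 1.55 ± 0.138 and 0.929 ± 0.196 CPM (SD, n = 2). Each subfamily was thus higher in both TETact groups than in WT, in each library. The C-type sum was higher in both Control_sgRNA libraries than in both Cd4_sgRNA libraries, and these sums were not tested.

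In its sum the beta array moved less than the gamma array, and its mean was 1.82 times the WT mean in Control_sgRNA and 3.06 times in Cd4_sgRNA. Its 22 genes summed to 1.40 and 1.54 CPM in WT, 3.28 and 2.06 CPM in Control_sgRNA and 3.94 and 5.06 CPM in Cd4_sgRNA. Without Pcdhb18 and Pcdhb22 the sum of the other 20 beta genes was 0.693 ± 0.341 CPM (SD, n = 2) in WT, 0.590 ± 0.311 CPM (SD, n = 2) in Control_sgRNA and 1.15 ± 0.289 CPM (SD, n = 2) in Cd4_sgRNA. Control_sgRNA overlapped with WT, whereas the Cd4_sgRNA libraries (0.946 and 1.36 CPM) lay above both WT libraries (0.452 and 0.934 CPM). Both genes left out rise in these data, so a flatter remainder is built in. The remainder includes Pcdhb7, which was at 0.305 CPM in WT, 0.0169 CPM in Control_sgRNA and 0.0949 CPM in Cd4_sgRNA.

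**Figure D2:**
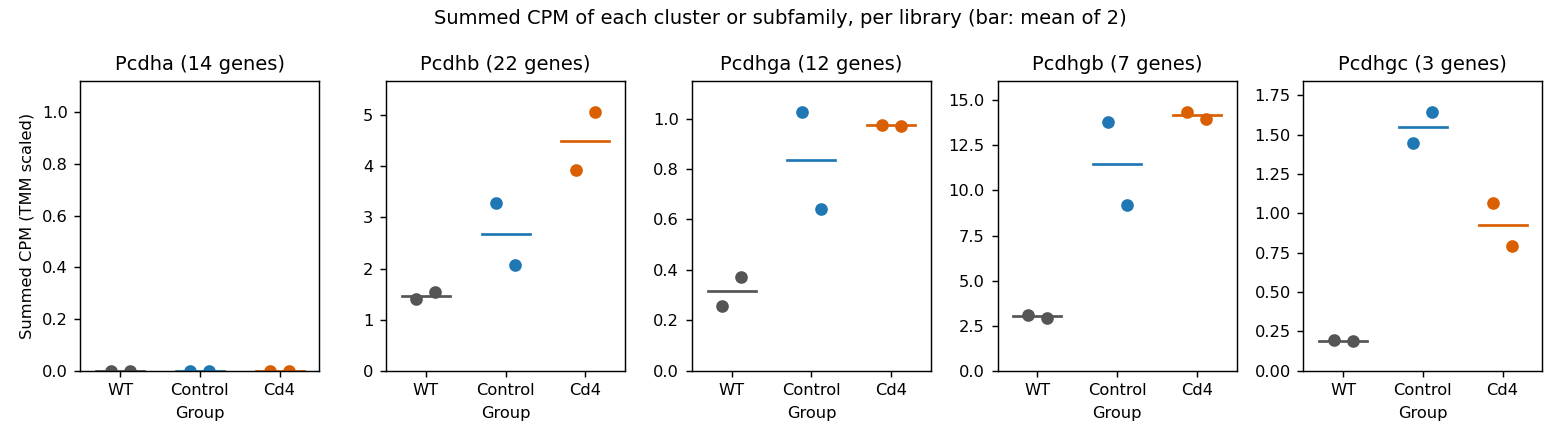
Summed CPM (linear axes from 0, scaled separately for each panel) of the alpha and beta arrays and of the A-, B- and C-type gamma genes, with a point per library and a bar at the mean of 2. The alpha genes are at 0, and all 3 gamma subfamilies lie higher in the TETact libraries than in WT.

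The expression filter, which asked for about 0.204 CPM in at least 2 libraries, left 10 members among 12418 genes tested, namely Pcdhb7, Pcdhb18, Pcdhb22, Pcdhga1, Pcdhgb2, Pcdhgb4, Pcdhgb5, Pcdhgb6, Pcdhgb7 and Pcdhgc4. Of these, 6 did not reach the level in both WT libraries and so entered only through TETact libraries, where they are high, while Pcdhb7 entered only through WT. The remaining 3, Pcdhb22, Pcdhgb6 and Pcdhgb7, reached it in each library. The other 48 members were not tested, so that the counts below describe the members that passed and not the family.

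In Control_sgRNA against WT, edgeR's quasi-likelihood test called 6 of the 10 tested members higher at an adjusted p under 0.05, beside 14.5% of all genes tested called higher. They were Pcdhgb4, Pcdhgb5, Pcdhgb6, Pcdhgb7, Pcdhgc4 and Pcdhb18. It called 1 member, Pcdhb7, lower, beside 13.5% of all genes. In Cd4_sgRNA against WT the same test called 7 of the 10 higher, beside 9.85% of all genes, and these were the 6 just named and Pcdhb22. It called 0 members lower, beside 10.7% of all genes, with Pcdhb7 at an unadjusted p of 0.0301, and voomLmFit and DESeq2 also called 0 lower. The median log2 fold change of all genes tested was -0.0012 in the first comparison and 0.0045 in the second. Of the members called higher, Pcdhgb4, Pcdhgb5, Pcdhgc4 and Pcdhb18 had entered only through TETact libraries, where they are high. The counts of calls therefore cannot be weighed against the shares of all genes as like with like.

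**Figure D3:**
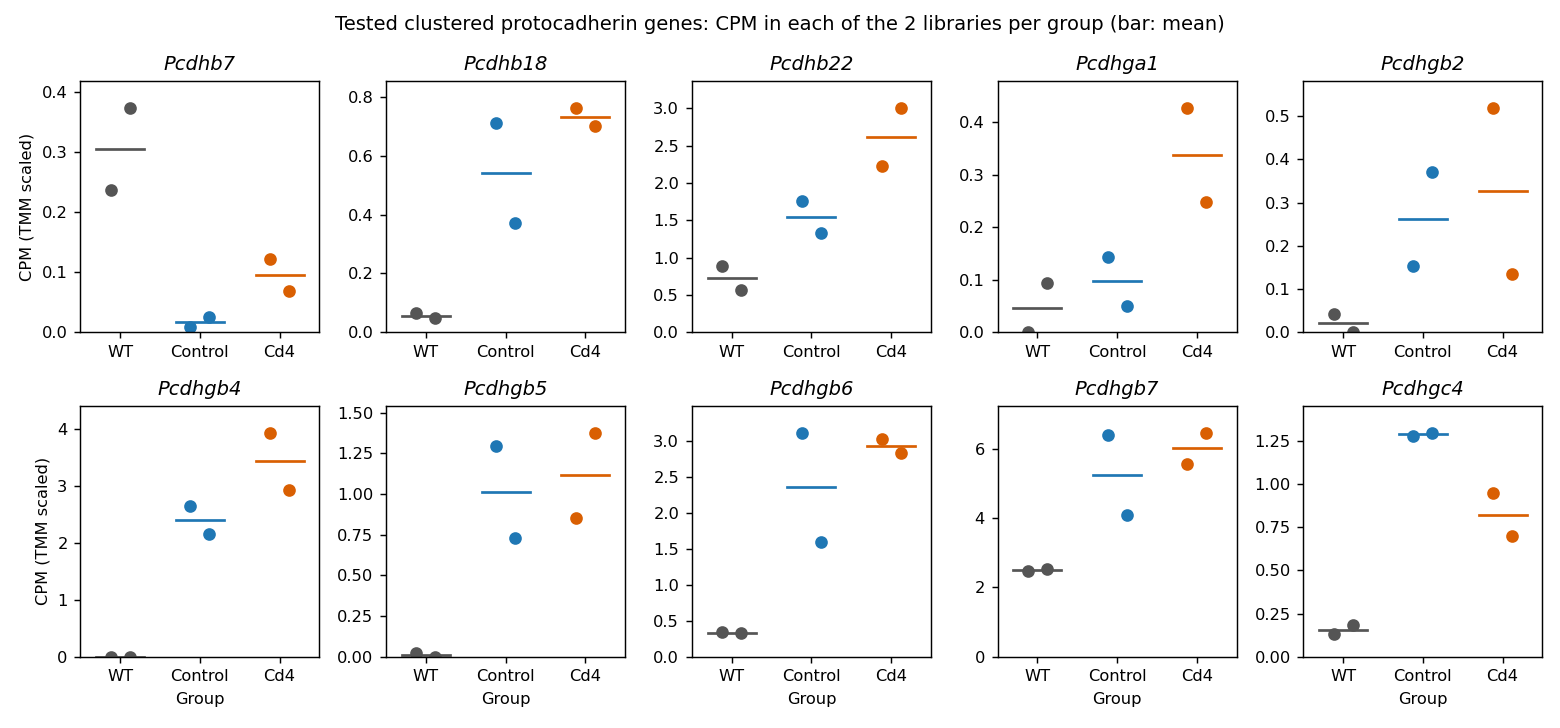
CPM (linear axes from 0, scaled separately for each panel) of the 10 tested members in WT, Control_sgRNA (Control) and Cd4_sgRNA (Cd4) cells, with a point per library and a bar at the mean of 2. Pcdhgb4 is at 0 in WT and at 2.15 to 3.94 CPM in the TETact libraries, and Pcdhb7 is the member that is highest in WT.

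The clearest difference was that of Pcdhgb4, a B-type gamma gene whose first exon lies at 37720369 to 37722917. It was counted 0 and 0 times in WT, 295 and 174 times in Control_sgRNA and 129 and 130 times in Cd4_sgRNA. These are 2.65 and 2.15 CPM in Control_sgRNA and 3.94 and 2.94 CPM in Cd4_sgRNA, whereas 3 counts over both WT libraries would be 0.0442 CPM. All 4 TETact libraries were thus well above the floor and both WT libraries were at 0. On pooled counts the lower limit of the 95% exact counting interval of the ratio to WT was 44.8 in Control_sgRNA and 61.4 in Cd4_sgRNA, with an adjusted p of 0.0041 and 0.0049 in edgeR's test. Both limits cover counting error only and leave out the spread between replicates. No exon of another gene is annotated over this exon. Exons of the antisense annotation Gm37165 do lie over the first exons of Pcdhga7 and Pcdhga8, on either side of it.

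Pcdhgb5, the next B-type gene in the array, followed the same pattern at a lower level. Its counts were 1 and 0 in WT, 144 and 59 in Control_sgRNA and 28 and 61 in Cd4_sgRNA. On pooled counts it was 71.8 times the WT level in Control_sgRNA (95% exact counting interval 12.7 to 2848) and 78.4 times in Cd4_sgRNA (13.7 to 3132), intervals that cover counting error only. The adjusted p from edgeR was 0.010 in Control_sgRNA and 0.0148 in Cd4_sgRNA.

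Pcdhgb6 was expressed in WT already and rose further. It was at 0.344 and 0.327 CPM in WT, 3.11 and 1.59 CPM in Control_sgRNA and 3.02 and 2.82 CPM in Cd4_sgRNA, so that the groups did not overlap with WT although the Control_sgRNA replicates differed from each other. Its log2 fold change against WT was 2.82 ± 0.55 (SE, adjusted p = 0.0159, edgeR) in Control_sgRNA and 3.10 ± 0.58 (SE, adjusted p = 0.0183, edgeR) in Cd4_sgRNA.

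Pcdhgb7 was the member with the highest level in each library. It was at 2.47 and 2.52 CPM in WT, 6.38 and 4.09 CPM in Control_sgRNA and 5.55 and 6.46 CPM in Cd4_sgRNA. The groups did not overlap with WT, and the log2 fold change was 1.08 ± 0.28 (SE, adjusted p = 0.0366, edgeR) in Control_sgRNA and 1.28 ± 0.30 (SE, adjusted p = 0.0326, edgeR) in Cd4_sgRNA. These calls were the least firm of the gamma genes, since voomLmFit gave an adjusted p of 0.0626 and 0.0583, and edgeR on the 2 groups alone gave 0.0799 for Control_sgRNA, within ranges over all alternatives of 3.3e-08 to 0.234 and 5.8e-08 to 0.226.

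Pcdhgc4, a C-type gene near the 3′ end of the gamma array whose first exon at 37815079 to 37817983 has no 66-base window in common with another member, was at 0.129 and 0.187 CPM in WT. It rose to 1.28 and 1.30 CPM in Control_sgRNA, a log2 fold change of 3.11 ± 0.39 (SE, adjusted p = 0.0041, edgeR), and to 0.946 and 0.700 CPM in Cd4_sgRNA, a log2 fold change of 2.43 ± 0.47 (SE, adjusted p = 0.0185, edgeR). The other C-type genes were low. Pcdhgc5 was counted 3 and 0 times in WT, 17 and 25 times in Control_sgRNA and 2 and 3 times in Cd4_sgRNA, and Pcdhgc3 was counted at most 3 times in any library.

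The other B- and A-type genes that were tested, Pcdhgb2 and Pcdhga1, did not pass the threshold. Pcdhgb2 was at 0.0430 and 0 CPM in WT, 0.153 and 0.371 CPM in Control_sgRNA and 0.519 and 0.136 CPM in Cd4_sgRNA, above WT in each TETact library (adjusted p = 0.131 and 0.137 in Control_sgRNA and Cd4_sgRNA, edgeR). Pcdhga1 was at 0 and 0.0934 CPM in WT, 0.144 and 0.0494 CPM in Control_sgRNA and 0.427 and 0.248 CPM in Cd4_sgRNA, which overlapped with WT in Control_sgRNA only (adjusted p = 0.404 and 0.101, edgeR). Pcdhga1 is overlapped by the antisense annotation Gm37118.

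Among the beta genes Pcdhb18 rose in both TETact groups. It was counted 3 and 1 times in WT, and was at 0.711 and 0.371 CPM in Control_sgRNA and 0.763 and 0.700 CPM in Cd4_sgRNA against 0.0646 and 0.0467 CPM in WT. The log2 fold change was 3.20 ± 0.71 (SE, adjusted p = 0.0169, edgeR) and 3.58 ± 0.73 (SE, adjusted p = 0.0180, edgeR). Pcdhb22, the last beta gene and the most abundant, was at 0.882 and 0.560 CPM in WT, 1.75 and 1.32 CPM in Control_sgRNA and 2.23 and 3.005 CPM in Cd4_sgRNA. It passed the threshold with Cd4 sgRNA (log2 fold change 1.77 ± 0.35 SE, adjusted p = 0.0213, edgeR) and not with control sgRNA (log2 fold change 1.01 ± 0.35 SE, adjusted p = 0.0775, edgeR), and both TETact groups lay above WT without overlap. DESeq2 called it in Control_sgRNA as well, with an adjusted p of 0.0479, within a range over all alternatives of 0.00070 to 0.285.

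Pcdhb7 went the other way. Its counts were low, 11 and 8 in WT, 1 and 2 in Control_sgRNA and 4 and 3 in Cd4_sgRNA, despite the greater depth of the Control_sgRNA libraries. On pooled counts WT was 17.9 times the Control_sgRNA level (95% exact counting interval 5.27 to 94.5), and the difference passed the threshold (adjusted p = 0.0068, edgeR). The interval covers counting error only and leaves out the spread between replicates. With Cd4 sgRNA it fell short of the threshold, with a log2 fold change of -1.60 ± 0.61 (SE, adjusted p = 0.0957, edgeR), and both libraries were below both WT libraries.

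**Figure D4:**
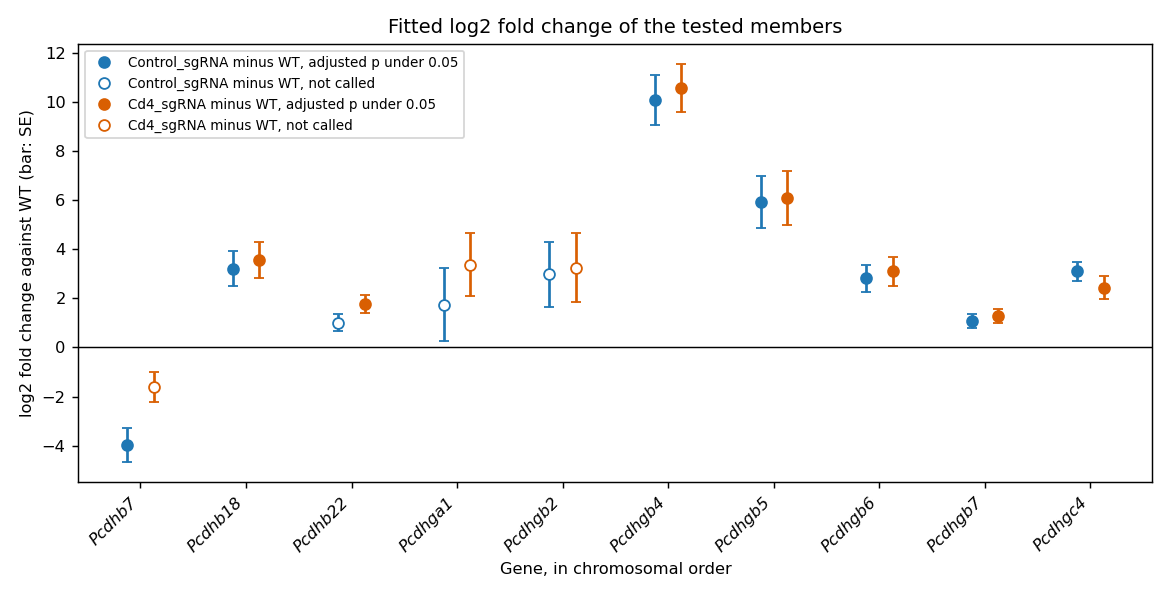
Fitted log2 fold change (bars: SE) of the 10 tested members in Control_sgRNA and in Cd4_sgRNA against the shared WT libraries, in chromosomal order, with filled points for an adjusted p under 0.05 in edgeR's test. The values of Pcdhgb4, which is at 0 in WT, and of Pcdhgb5, with 1 WT count, depend on the prior count of the fit and are not bounds, and Pcdhb7 is the gene below 0.

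The calls against WT rest on few libraries, and so do those over all genes. With Control_sgRNA replicate 2 left out, the test called 7 of 12 members higher in Control_sgRNA, beside 30.4% of all genes, and with Control_sgRNA replicate 1 left out it called 9 of 13, beside 33.0% of all genes, each time with Pcdhb7 lower. In Cd4_sgRNA 10 members were called higher in each of these fits, beside 30.7% and 32.5% of all genes. Without WT replicate 1, no member was called in either comparison, and few of all genes were called. Without WT replicate 2, Pcdhgb4 was the member called in each comparison, beside 224 and 103 of 12765 genes higher. With either Cd4_sgRNA replicate left out Pcdhgb7 was no longer called in Control_sgRNA, where 821 of 12808 and 818 of 12818 genes were called higher, and Pcdhgb4 was the member called in Cd4_sgRNA, where 118 and 96 genes were. The adjusted p of Pcdhgb4 without WT replicate 1 was 0.0637 in Control_sgRNA and 0.0684 in Cd4_sgRNA. The direction of each called member stayed the same in each of these fits. A lone library is assumed in them to vary like the other groups.

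Within the gamma array the make-up changed along with the level. Pcdhgb7 took 70.1% of the gamma counts in WT replicate 1 (95% Wilson interval 62.7% to 76.6%) and 72.0% in WT replicate 2 (61.0% to 80.9%). Its share was 39.2% (37.0% to 41.5%) and 35.7% (32.7% to 38.8%) in Control_sgRNA and 33.9% (30.0% to 38.0%) and 41.0% (37.4% to 44.7%) in Cd4_sgRNA, below the WT intervals in each TETact library. Pcdhgb4 took 0% of the 164 and 75 gamma counts in WT and between 16.3% and 24.0% in the TETact libraries. The share of Pcdhgb6 was 9.76% and 9.33% in WT and 13.9% to 19.1% in the TETact libraries, and the interval of WT replicate 2 (4.59% to 18.03%) overlapped with those of the TETact libraries. Without Pcdhgb7 the other 21 gamma genes were at 1.02 ± 0.0522 CPM (SD, n = 2) in WT, and their mean was 8.48 times that in Control_sgRNA and 9.88 times in Cd4_sgRNA. Pcdhgb7 held most of the WT gamma counts and rose less than the array, so leaving it out raises these ratios by construction. When Pcdhgb4 was left out instead, the ratios were 3.26 and 3.59, beside 3.94 and 4.57 for all 22 gamma genes. The intervals cover counting error only, since reads without molecular identifiers are not independent molecules. In bulk RNA, more expressing cells and more RNA per cell cannot be told apart.

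Levels were compared between genes per kb, of the variable first exon for gamma genes and of the counted exon for beta genes. In WT the level per kb was 0.963 ± 0.0128 CPM for Pcdhgb7, 0.235 ± 0.0742 CPM for Pcdhb22 and 0.131 ± 0.0048 CPM for Pcdhgb6 (SD, n = 2). In Cd4_sgRNA the gamma genes stood at 2.32 ± 0.247 for Pcdhgb7, 1.35 ± 0.277 for Pcdhgb4, 1.14 ± 0.0545 for Pcdhgb6 and 0.438 ± 0.145 for Pcdhgb5 (CPM per kb, SD, n = 2), and Pcdhgb4 and Pcdhgb6 lay within their spread of each other. In Control_sgRNA they stood at 2.02 ± 0.624 for Pcdhgb7, 0.943 ± 0.140 for Pcdhgb4, 0.918 ± 0.419 for Pcdhgb6, 0.443 ± 0.00487 for Pcdhgc4 and 0.397 ± 0.157 for Pcdhgb5 (CPM per kb, SD, n = 2). Here too Pcdhgb4 and Pcdhgb6 did not differ beyond their spread, nor did Pcdhgc4 and Pcdhgb5. Pcdhb22 was at 0.502 ± 0.0997 CPM per kb in Control_sgRNA and 0.853 ± 0.179 CPM per kb in Cd4_sgRNA (SD, n = 2). Its place among the gamma genes depends on the length used, since per kb of the whole annotated gamma transcript Pcdhgb4 was at 0.536 ± 0.0796 and 0.767 ± 0.158 CPM in these groups (SD, n = 2).

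Another 28 members had counts but were not tested. Of these, 17 had more than 3 counts in at least 2 libraries, and the other 11 did not exceed 3 counts in more than 1 library. In Control_sgRNA 9 of the 28 lay above WT in both libraries and 19 overlapped, and in Cd4_sgRNA 13 lay above and 15 overlapped. Of the 4981 genes that likewise had a count and were not tested, 20.3% and 11.8% lay above WT in the same way. None of the 28 lay below WT, but a member with 0 counts in a WT library cannot do so. The share of the 4981 genes that lay below is not given here. The 3 A-type genes Pcdhga3, Pcdhga5 and Pcdhga8 had 0 counts in both WT libraries. Pcdhga8 was counted 14 and 11 times in Control_sgRNA and 3 and 6 times in Cd4_sgRNA, and the lower limit of the 95% exact counting interval of its ratio to WT was 2.22 and 1.74. Its first exon is overlapped by annotated exons of Pcdhgb4 and of the antisense Gm37165, so reads in the overlap cannot be told apart. Pcdhga5 was counted 12 and 7 times and 3 and 4 times, with lower limits of 1.65 and 1.27. Pcdhga3 was counted 7 and 4 times and 1 and 3 times, and its lower limits of 0.887 and 0.582 include no difference. These limits cover counting error only. Without the low-count filter, edgeR gave an adjusted p of 0.0569 and 0.102 for Pcdhga8 and of 0.0787 and 0.130 for Pcdhga5. Pcdhga9 was also at 0 in WT, with 6 and 0 counts in Control_sgRNA and 1 and 6 in Cd4_sgRNA.

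Other low gamma genes were seen in WT as well. Pcdhgb1 was counted 0 and 1 times in WT, 10 and 8 times in Control_sgRNA and 5 and 3 times in Cd4_sgRNA, which is above WT in each TETact library. Pcdhga12, with 2 and 1 counts in WT, had 18 and 10 in Control_sgRNA and 2 and 3 in Cd4_sgRNA. Pcdhga4 (2 and 4 in WT, 21 and 6 in Control_sgRNA, 3 and 5 in Cd4_sgRNA), Pcdhga11 (6 and 0, 14 and 5, 2 and 3) and Pcdhgb8 (9 and 1, 11 and 12, 10 and 8) were counted in WT at levels that overlapped with at least 1 TETact group. Pcdhgb8 is the B-type gene next to Pcdhga11 and the last of the B-type series. Its ratio of pooled counts was 0.813 in Control_sgRNA (95% exact counting interval 0.372 to 1.91) and 1.59 in Cd4_sgRNA (0.694 to 3.85), so a difference was not detectable at this depth. The interval of Pcdhgb6 was 4.81 to 11.6 in Control_sgRNA and 5.58 to 13.8 in Cd4_sgRNA. The intervals of both genes cover counting error only and leave out the spread between replicates.

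The low beta genes were uneven among the TETact libraries. Pcdhb16 was counted 0 and 2 times in WT, 19 and 8 times in Control_sgRNA and 2 and 9 times in Cd4_sgRNA. Pcdhb17, the neighbour of Pcdhb18, was counted 1 and 2 times, 19 and 3 times and 5 and 4 times, and its pooled count ratio to WT was 2.59 (95% exact counting interval 0.779 to 13.5) and 2.64 (0.660 to 15.2). Both intervals cover counting error only. Pcdhb14 had 2 and 1 counts in WT, 12 and 4 in Control_sgRNA and 7 and 6 in Cd4_sgRNA, and Pcdhb21 had 2 and 3, 16 and 4, and 5 and 9. Pcdhb19 had 13 of its 14 Cd4_sgRNA counts in replicate 2 and 1 in WT. Pcdhb12 and Pcdhb20 did not exceed 8 counts in any library. When the filter on low counts was dropped and all 38 members with a count were tested, edgeR called 6 higher and 1 lower in Control_sgRNA and 7 higher in Cd4_sgRNA, and none of the 28 members added was called. Of all 17399 genes in that fit 9.83% were called higher and 8.87% lower in Control_sgRNA and 6.42% and 7.26% in Cd4_sgRNA.

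Cd4_sgRNA and Control_sgRNA cells were then compared with each other, which asks whether the sgRNA made a difference beside TETact-v3 itself. edgeR's quasi-likelihood test called 0 of the 10 tested members, beside 0.0725% of all genes tested (9 of 12418), and voomLmFit also called 0 of 10. DESeq2 called 0 of the 7 members for which it gave an adjusted p, beside 529 genes higher and 877 lower (11.3%) of 12418. At an unadjusted p under 0.05 in edgeR's test there were 3 of the 10 members, Pcdhb7, Pcdhb22 and Pcdhgc4, beside 24.9% of all genes tested. Pcdhgc4 was lower with Cd4 sgRNA, with a log2 fold change of -0.67 ± 0.25 (SE, adjusted p = 0.178, edgeR), and the libraries did not overlap. Pcdhb22 was higher, at 0.77 ± 0.26 (SE, adjusted p = 0.166, edgeR), also without overlap. For the leading gamma gene Pcdhgb7 the difference was 0.19 ± 0.24 (SE), for Pcdhgb6 0.28 ± 0.34 (SE), for Pcdhgb5 0.14 ± 0.38 (SE) and for Pcdhgb4 0.49 ± 0.24 (SE) on the log2 scale, with adjusted p from 0.260 to 0.821 in edgeR's test. This result depended on the Control_sgRNA replicates. Without Control_sgRNA replicate 1, 7 members were called higher and 2 lower in Cd4_sgRNA, beside 3883 and 3955 of 12789 genes, and without Control_sgRNA replicate 2 Pcdhb22 was the member called, beside 1532 genes higher and 1628 lower of 12670. The members called without replicate 1 were Pcdhb18, Pcdhb19, Pcdhb22, Pcdhga1, Pcdhgb4, Pcdhgb6 and Pcdhgb7 (higher) and Pcdhgc4 and Pcdhgc5 (lower).

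Protocadherins outside the arrays were at or near 0. The 12 non-clustered protocadherin genes of the list, Pcdh1 and Pcdh12 on the same chromosome included, had at most 3 counts in any library, 7 of them were at 0 throughout, and 0 were tested.

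Of 23 tested genes within 500 kb of the arrays or between them, 3 rose and 2 fell in Control_sgRNA and 3 rose and 3 fell in Cd4_sgRNA, with a median log2 fold change of -0.06 and 0.06. These counts stand beside 14.5% of all genes higher and 13.5% lower in Control_sgRNA, and 9.85% and 10.7% in Cd4_sgRNA, and the same shares apply to the lists that follow. Eif4ebp3, an inhibitor of the cap-binding factor eIF4E, rose from 3.26 ± 0.0497 CPM (SD, n = 2) in WT to 7.37 ± 0.235 CPM and 6.38 ± 0.134 CPM (SD, n = 2) in Control_sgRNA and Cd4_sgRNA, and its neighbour Ankhd1, whose transcripts can run through into it, rose by 0.65 and 0.59 on the log2 scale. Wdr55, a ribosome biogenesis factor, rose by 0.41 and 0.55. Apbb3, an adaptor protein of the amyloid precursor protein, fell in both groups (log2 fold change -0.77 and -1.22). 1700086O06Rik fell in Control_sgRNA (-1.55), and Ndufa2, a subunit of respiratory complex I, and Rnf14, a ubiquitin ligase, fell in Cd4_sgRNA (-0.46 and -0.39), all at an adjusted p of at most 0.0451 in edgeR's test. Short of the threshold, 1700086O06Rik was at -0.77 in Cd4_sgRNA, and Ndufa2 and Rnf14 were at -0.24 and -0.22 in Control_sgRNA. Taf7, a subunit of the general factor TFIID that lies between the beta and gamma arrays and was named after its values were seen, was at 22.9 ± 1.89, 20.8 ± 4.003 and 25.9 ± 2.48 CPM (SD, n = 2) in WT, Control_sgRNA and Cd4_sgRNA (adjusted p = 0.534 and 0.494 against WT, edgeR).

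Of 13 tested genes for CTCF, cohesin and its loaders, 1 rose and 1 fell in Control_sgRNA and 0 were called in Cd4_sgRNA by edgeR, where DESeq2 called 2 and voomLmFit 0, with a median log2 fold change of 0.13 and 0.15. Ctcf itself was at 292 ± 5.72 CPM in WT, 262 ± 32.8 CPM in Control_sgRNA and 290 ± 0.846 CPM in Cd4_sgRNA (SD, n = 2, adjusted p = 0.294 and 0.942 against WT, edgeR). The cohesin release factor Wapl rose in Control_sgRNA (log2 fold change 0.37 ± 0.09 SE, adjusted p = 0.0346, edgeR) and the cohesin loader subunit Mau2 fell (-0.40 ± 0.09 SE, adjusted p = 0.0258, edgeR). In Cd4_sgRNA they moved the same way by 0.31 and -0.27, short of the threshold (adjusted p = 0.0641 and 0.0946, edgeR).

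Of 24 tested silencing and DNA methylation factors, 6 rose and 1 fell in each TETact group, with a median log2 fold change of 0.35 and 0.38. The de novo DNA methyltransferase Dnmt3a rose from 82.6 ± 2.38 CPM (SD, n = 2) in WT to 167 ± 11.3 CPM (SD, n = 2) in Control_sgRNA (log2 fold change 1.01 ± 0.09 SE, adjusted p = 0.0018, edgeR) and to 178 ± 4.73 CPM (SD, n = 2) in Cd4_sgRNA (1.11 ± 0.09 SE, adjusted p = 0.0019, edgeR). The maintenance methyltransferase Dnmt1 rose in Control_sgRNA (0.49, adjusted p = 0.0199, edgeR) and was 0.33 higher on the log2 scale in Cd4_sgRNA (adjusted p = 0.0694, edgeR). Dnmt3b, known to methylate protocadherin promoters, did not pass the threshold, at 12.1 ± 0.872, 15.2 ± 3.16 and 17.4 ± 0.519 CPM (SD, n = 2) in WT, Control_sgRNA and Cd4_sgRNA (adjusted p = 0.183 and 0.0806, edgeR). The silencers of the arrays Smchd1 (log2 fold change 0.05 and -0.16) and Setdb1 (0.37 and 0.41) had adjusted p of 0.768 and 0.319 and of 0.0567 and 0.0531 in edgeR's test. The polycomb subunits Suz12 (0.42 and 0.43) and Eed (0.41 and 0.61) rose in both groups. The chromatin remodeller Hells rose in Cd4_sgRNA (1.04, adjusted p = 0.0255, edgeR). In Control_sgRNA it was 0.74 higher than in WT and just short of the threshold (adjusted p = 0.0509, edgeR).

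Of 20 tested genes for proteolysis and cytoplasmic partners of protocadherins, 3 rose and 6 fell in Control_sgRNA and 1 rose and 4 fell in Cd4_sgRNA, with a median log2 fold change of -0.17 and -0.06. Adam10, the sheddase that cleaves gamma-protocadherins at the membrane, fell from 112 ± 4.73 CPM (SD, n = 2) in WT to 69.2 ± 1.42 CPM and 55.1 ± 3.84 CPM (SD, n = 2), with a log2 fold change of -0.69 ± 0.09 (SE, adjusted p = 0.0047, edgeR) in Control_sgRNA and -1.02 ± 0.09 (SE, adjusted p = 0.0025, edgeR) in Cd4_sgRNA. The WAVE-type complex subunit Nckap1l (-0.45 and -0.47) and the kinases Ptk2b (-0.73 and -0.97), which binds protocadherin tails, and Fyn (-1.08 and -1.40) fell in both groups. Src (0.96) and Wasf2 (0.34) rose in Control_sgRNA and Marcks rose in both groups (0.75 and 0.89). In Cd4_sgRNA Src was 0.50 and Wasf2 0.17 higher than in WT, short of the threshold. In a comparison of Cd4_sgRNA with Control_sgRNA, edgeR called 0 of these 80 genes of the lists and neighbours and DESeq2 called 4.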

How the data were processed

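Paired-end 66 bp polyA RNA-seq of 6 A20 libraries was used. Rsubread served the authors for alignment to mm10 and, through featureCounts with its inbuilt RefSeq annotation, for counting by Entrez gene. The deposited values are these raw counts, beside a gene length. Strand and the handling of shared reads are not given in the sources used here. A table of the whole series repeats these counts and was not used.

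Identifiers were matched to RefSeq symbols of GRCm38.p6 (25275 of 27179), and 25227 were left after genes without a unique symbol, mitochondrial genes, rRNA and the type other were set aside. filterByExpr left 12418 genes. Libraries were scaled by TMM and tested with edgeR 4.0.16 (quasi-likelihood, robust, one term per group, all 6 libraries, two-sided) in R 4.3.3, with Benjamini-Hochberg adjustment over all genes tested at 0.05. The SE was taken from the log2 fold change and F. The test was tried on simulated counts with the same spread in every group and with changes only in well-counted genes. That setting covers neither members near the floor nor the spread of the Control_sgRNA replicates. Exact permutation of 2 against 2 libraries cannot give a p below 0.333, so the calls rest on this model, and the replicates are independently repeated samples of a cell line. Depth ranged from 23194920 to 121623410 counts. Alternatives were RLE factors, library size only, voomLmFit of limma 3.58.1, DESeq2 1.42.0, testing without the low-count filter or without the annotation filter, fits of the 2 groups compared, a block for replicate number, and leaving out each library. The legacy quasi-likelihood method, and all alternatives for the lists, were added after the data were seen.

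The members and lists were chosen with earlier results of these data known. Named were each tested member, untested members with more than 3 counts in at least 2 libraries, up to 3 genes per list, comparison and direction with the smallest p past the threshold, and Ctcf, Smchd1, Setdb1, Dnmt1, Dnmt3a, Dnmt3b and Cd4. Some genes that this rule names are not reported here. Exons, overlaps and the comparison of 66-base windows came from GENCODE on GRCm38. No sequence is shown. Replicate numbers did not pair the samples (correlations of deviations 0.0138, -0.0352 and -0.137 across genes).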

Additional observations from a re-analysis of the deposited data

How the results depend on the processing

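With replicate numbers as a replicate block, which did not pair the samples, edgeR again called 6 members higher and 1 lower in Control_sgRNA against WT, 7 higher and 0 lower in Cd4_sgRNA against WT, and 0 between the TETact groups. Leaving out each library in turn gave 0 to 9 members higher and 0 to 1 lower in Control_sgRNA against WT, 0 to 10 higher in Cd4_sgRNA against WT, and 0 to 7 higher and 0 to 2 lower between the TETact groups. Over the same fits the share of all genes called higher ran from 0.495% to 33.0% in Control_sgRNA and from 0.369% to 32.5% in Cd4_sgRNA against WT. Sums followed the scaling little, and the gamma sum in WT was 3.45 CPM with library size only. Members counted in both replicates numbered 13 in WT and 32 in Cd4_sgRNA with more than 0 counts, and 2 in WT, 11 in Control_sgRNA and 8 in Cd4_sgRNA with more than 10. The genes called of the 80 in the background lists were 23 in Control_sgRNA against WT (6 in a fit of those groups alone, 0 to 56 without a library), 18 in Cd4_sgRNA against WT (28 with DESeq2, 51 in a fit of those groups alone, 0 to 51 without a library) and 0 between the TETact groups (4 with DESeq2, 0 to 46 without a library). All genes called moved alike, at 61.7% in the fit of Cd4_sgRNA and WT alone, 12.4% in that of Control_sgRNA and WT alone, and up to 64.2% without a library. Between the TETact groups the log2 difference changed sign for Pcdhgb2 without Cd4_sgRNA replicate 1 (-0.86) and without Control_sgRNA replicate 1 (-0.30), within a range of -0.86 to 1.06 over the libraries left out. It did so for Pcdhgb5 without Cd4_sgRNA replicate 2 (-0.28) and without Control_sgRNA replicate 2 (-0.17), within -0.28 to 0.66. Without Control_sgRNA replicate 2 it did so for Pcdhgb6 (-0.099, range -0.099 to 0.87) and Pcdhgb7 (-0.076, range -0.076 to 0.57). None of these values below 0 was called, and the cause was not tested. Under 0.140 CPM the depth of the shallowest library limits what can be said of a member.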
